A study of Drosophila melanogaster with 2 samples.

Results

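Syp, Imp, larp and Dp1 encode RNA-binding proteins, and all 4 carry peaks in chromatin immunoprecipitation with sequencing (ChIP-seq) of the transcription factor CrebA from whole Drosophila melanogaster larvae. They were listed by name with earlier results on their peaks known, out of 13981 protein-coding genes on placed chromosomes. Every summit in a gene or within 5000 bp of it was then read from the deposited peak lists. Of 2238 peaks in the authors' optimal list, 17 had their summit in or near these genes. Both samples are biological replicates, labelled 4 and 2, of 1 group: wandering larvae in the third instar from the CrebA-MiMIC-GFP strain, male and female animals pooled, of unknown age. In this strain an eGFP exon inserted into an intron of CrebA makes a CrebA-eGFP fusion, which was precipitated with an antibody against GFP. No second genotype, stage or treatment was analysed here, so nothing below is a change between conditions. Peaks come from all tissues of the animal together, and binding in fewer cells cannot be told apart from weaker binding in each cell.

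RNA-binding proteins help to set where, when and for how long an mRNA is translated. Syp (Syncrip, related to hnRNP Q) and Imp (the fly IGF-II mRNA-binding protein, with KH domains) are best known in the larval brain, where neural stem cells make much Imp early and much Syp late, and the pair act in opposite ways on mRNAs such as that of chinmo. The larp product is a La-related protein that binds poly(A)-binding protein and helps control translation. Dp1 encodes the fly vigilin, a protein with many KH domains that binds RNA and single-stranded satellite DNA. CrebA, a bZIP factor of the CREB3 family, is known for activating secretory pathway genes in the embryonic salivary gland.

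The deposited lists give each peak a signal, the authors' score, in which a higher value is a stronger peak. The scaling of that signal to depth is not stated and read counts were not analysed here, so the depth is unknown and signals are compared within a list only. Relaxed lists, which hold background as well as peaks, had 29999 entries for each replicate and for the pooled reads. The optimal list keeps reproducible peaks, chosen by the irreproducible discovery rate. Its 2209 nuclear peaks had a median signal of 110.1 and a lowest of 76.9. A promoter summit is a summit within 500 bp of an annotated transcript start, and starts are numbered along each gene from its 5′ end. Ranks in a replicate count its mitochondrial peaks too, except where nuclear peaks are named.

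Syp (FBgn0038826, 3R 20756729 to 20810726, plus strand, dm6) had 7 optimal summits, all inside the gene, and 3 of its 5 starts carried one. The strongest summit, with a pooled signal of 494, a signal of 205 in replicate 4 and 283 in replicate 2, lay 234 bp upstream of start 2, from which 3 of the 20 annotated transcripts begin. It ranked 18 among nuclear optimal peaks, and 16 and 24 among nuclear peaks of replicates 4 and 2. With mitochondrial peaks counted, its ranks in the replicates were 38 and 48. The next strongest, 133 bp upstream of start 4, had a signal of 243 in the pooled reads, 149.9 in replicate 4 and 104 in replicate 2. It stood much higher in replicate 4 (rank 71) than in replicate 2 (rank 458). A summit 297 bp downstream of start 3, in the 5′ UTR of a Syp transcript, had a pooled signal of 118. Start 1, the 5′ end of the gene and the origin of 7 transcripts, was 8716 bp from the nearest optimal summit, and start 5, the origin of 6, was 5221 bp from one. Neither had a relaxed pooled summit within 500 bp. The remaining summits were intronic: 1 at 8716 bp into the gene with a signal of 150.1, and 3 between 791 and 1782 bp downstream of start 4 with signals of 156, 126 and 109.5. The first pair of those 3 have summits 200 bp apart and overlapping intervals, so they need not be separate sites. Sequence is shown for the strongest summit of Syp, Imp and larp and for the promoter summit at start 4 of Syp and of Imp, to set stretches with many GAGAG words beside stretches with few or none. Each stretch reaches 100 bp to either side of the summit, from the Release 6 RefSeq genome, and capitals mark GAGAG or ACGTG on either strand. Those upstream of Syp start 2, at chr3R:20778561-20778761, and of start 4, at chr3R:20782750-20782950, both on the plus strand, read:
Syp start 2: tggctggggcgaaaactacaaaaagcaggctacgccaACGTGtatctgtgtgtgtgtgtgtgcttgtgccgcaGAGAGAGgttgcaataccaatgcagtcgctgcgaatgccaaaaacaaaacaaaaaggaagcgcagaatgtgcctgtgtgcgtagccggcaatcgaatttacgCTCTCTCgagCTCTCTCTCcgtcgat
Syp start 4: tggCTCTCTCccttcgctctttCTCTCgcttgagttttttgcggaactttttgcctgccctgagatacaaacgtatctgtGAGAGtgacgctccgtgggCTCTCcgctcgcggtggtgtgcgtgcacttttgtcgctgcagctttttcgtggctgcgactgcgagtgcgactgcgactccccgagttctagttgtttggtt

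In the first stretch GAGAG or its reverse CTCTC began at 7 places, in 1 run of GA before the summit and in a pair of CT runs after it, and ACGTG occurred once. The stretch at start 4 held 5 such places, with 1 of them over the summit base.

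Imp (FBgn0285926, X 10787869 to 10824277, minus strand) also had 7 optimal summits within 5000 bp, but 4 of them inside the gene. The other 3, at 1718, 3323 and 4224 bp beyond its 3′ end, lie in introns of sesB (FBgn0003360) and Ant2 (FBgn0025111), which encode the mitochondrial ADP/ATP translocases and overlap each other. The middle one, with a signal of 101, was 88 bp upstream of a sesB start and 22310 bp from the nearest Imp start. The strongest Imp summit had a signal of 259 in the pooled reads, 118 in replicate 4 and 149 in replicate 2, with ranks of 134 and 179 in the replicates. It was not a promoter summit: it lay in an intron, 988 bp downstream of start 5. Start 5, from which 4 of 12 transcripts begin, had a weak summit 30 bp downstream with a signal of 84.7. Start 4, the origin of 2 transcripts, had a summit 140 bp upstream with a signal of 121, 41.5 in replicate 4 and 87.8 in replicate 2. The remaining summit, 1392 bp upstream of start 4, had a signal of 80.1. Starts 1 to 3, which serve 6 transcripts, were 4790 to 7250 bp from any optimal summit. At start 1 the relaxed pooled list held a summit of signal 24.4, and at starts 2 and 3 none. A relaxed pooled summit of signal 74.7 beside the strongest one stood just below the lowest nuclear signal of the optimal list. The strongest summit, at chrX:10805768-10805968, and the summit upstream of start 4, at chrX:10815675-10815875, both read along the minus strand, are surrounded by:
Imp intron: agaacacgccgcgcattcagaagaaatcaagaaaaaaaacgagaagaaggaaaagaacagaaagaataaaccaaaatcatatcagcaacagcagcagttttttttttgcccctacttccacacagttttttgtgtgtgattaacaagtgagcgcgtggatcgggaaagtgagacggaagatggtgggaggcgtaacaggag
Imp start 4: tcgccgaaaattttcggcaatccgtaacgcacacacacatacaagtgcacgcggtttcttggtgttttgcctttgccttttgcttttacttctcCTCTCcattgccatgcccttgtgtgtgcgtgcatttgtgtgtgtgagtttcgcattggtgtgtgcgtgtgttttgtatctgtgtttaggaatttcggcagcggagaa

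The intronic stretch, under the strongest Imp summit, has no capitals, since it held none of the 5 motifs searched. The stretch at start 4 held GAGAG once, as CTCTC, beginning at base 95.

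The larp gene (FBgn0261618, 3R 28318162 to 28336440, minus strand) had 1 optimal summit, with a signal of 518 in the pooled reads, 227 in replicate 4 and 301 in replicate 2. It ranked 14 among nuclear optimal peaks, and 13 and 19 among nuclear peaks of replicates 4 and 2. With mitochondrial peaks counted, its ranks in the replicates were 34 and 43. It lay 331 bp upstream of start 5 and 354 bp upstream of start 6, each the origin of 1 of 7 transcripts, and in an intron of the longer ones. The 5′ end of the gene was 9845 bp away. Starts 1 to 3 had no relaxed pooled summit within 500 bp, and start 4 had one of signal 41.0. Replicate 2 alone held a further summit 375 bp downstream of start 3, in a 5′ UTR, with a signal of 64.5 and rank 1413, with no summit within 200 bp of it in replicate 4. Apart from the strong summit, the 5 relaxed pooled summits in the window had signals of at most 41.0. The sequence under the strong summit is read here along the minus strand from chr3R:28326495-28326695:
larp start 5: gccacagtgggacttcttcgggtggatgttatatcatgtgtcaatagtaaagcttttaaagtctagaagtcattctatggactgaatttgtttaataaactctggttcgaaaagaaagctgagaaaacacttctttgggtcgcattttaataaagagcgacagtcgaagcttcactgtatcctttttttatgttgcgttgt

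This stretch too held none of the 5 motifs, and its GC content was 37.3%.

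Dp1 (FBgn0027835, 2R 18412027 to 18421124, plus strand) had 2 optimal summits. The stronger had a signal of 618 in the pooled reads, 229.6 in replicate 4 and 397 in replicate 2, and ranked 7 among nuclear optimal peaks. It lay 33 bp upstream of start 1, the 5′ end of the gene and the origin of 3 of 7 transcripts. Among nuclear peaks of replicates 4 and 2 it ranked 11 and 6, and with mitochondrial peaks counted 32 and 28. The other summit had a signal of 238 in the pooled reads, 127 in replicate 4 and 122 in replicate 2, with ranks of 110 and 310. It lay in an intron, 381 bp upstream of start 4 of Dp1, the origin of 1 transcript. The immune adaptor gene imd (FBgn0013983, 2R 18409796 to 18413599) runs the other way and overlaps the first 1.57 kb of Dp1. The stronger summit lay in an intron of imd, outside Dp1, and 462 bp from the nearest imd start. The other summit was 71 bp from an imd start, so it is nearer to a start of imd than to one of Dp1. These lists do not assign either peak to 1 of the genes. Replicate 2 also ranked a summit 183 bp downstream of Dp1 start 1 at 1450 (signal 63.9), and in the pooled list the summit there had a signal of 35.0 and no optimal call.

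**Figure D1:**
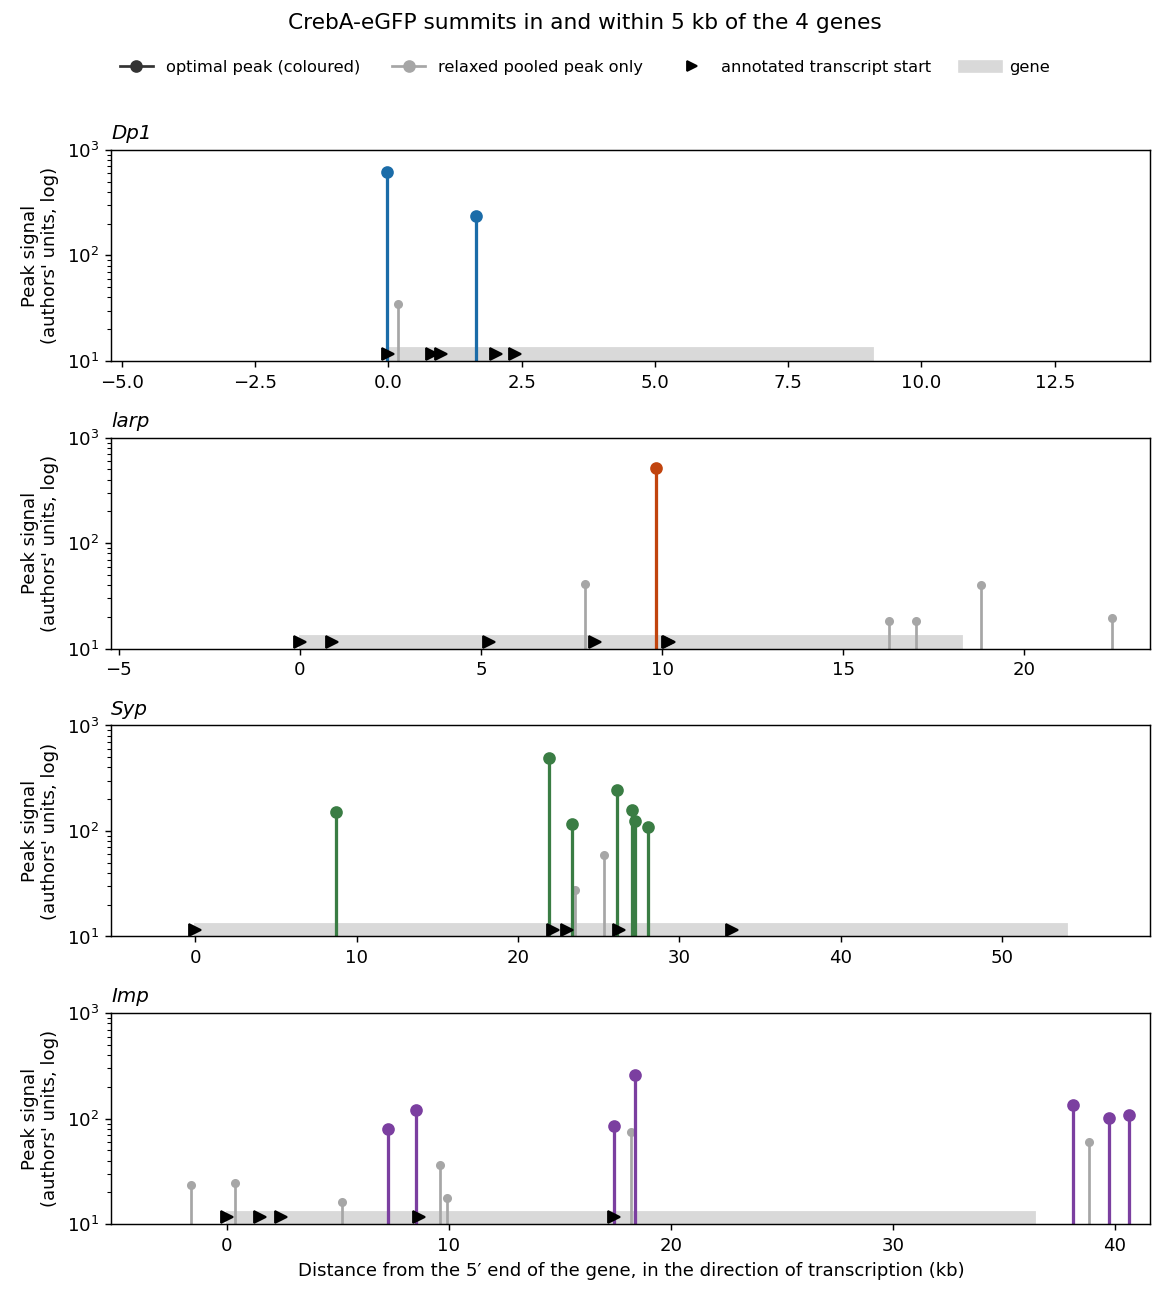
Summits in and within 5 kb of Dp1, larp, Syp and Imp, with the distance from the 5′ end of each gene along transcription (kb) on the x axis and the authors' pooled peak signal (log scale) on the y axis. Coloured stems are optimal peaks, grey stems are relaxed pooled peaks, triangles are annotated transcript starts and the grey bar is the gene. The stems over 490 stand at start 1 of Dp1 and at downstream starts of larp and Syp.

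Most starts with a summit lay inside the genes, as do most of the starts of these genes. The 4 genes have 21 distinct starts, of which 9 had an optimal summit within 500 bp. They were 1 of the 4 starts at a 5′ end and 8 of the 17 further downstream. Of those 8, larp starts 5 and 6 share 1 summit. Of the 4 genes, Dp1 had a summit at its 5′ end, and larp, Syp and Imp had promoter summits at downstream starts and none at the 5′ end. Among the 417 nuclear genes with several starts and a promoter summit, 186 (44.6%) had none at the 5′ end, so the pattern of these 3 genes is a common one in this list. Starts with a summit serve 19 of the 46 annotated transcripts of the 4 genes. No share over all annotated starts or transcripts was computed, so the counts of starts and transcripts only describe the 4 genes. Of the 8 promoter summits, 6 lay upstream of the nearest start of their gene and 2 downstream. In the whole list 80.4% of 780 promoter summits were upstream of the nearest start of any protein-coding gene. The median distance was 187 bp for the 4 genes, measured to starts of the gene itself. It was 146.5 bp for the list, measured to the nearest start of any protein-coding gene. These medians are unlike measures: the weaker Dp1 summit enters at 381 bp, though an imd start was 71 bp away. They do not show which distance is larger. RefSeq annotates the same 21 starts.

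All 4 genes had a promoter summit, against 5.14% of protein-coding genes, and any summit in or within 5000 bp, against 15.8%. With a window of 250 bp larp had no promoter summit, which left 3 of the 4 genes with one, against 4.03% of protein-coding genes. The genes were picked with these peaks known, so their counts are a description and the percentages only give the background. In the order of strongest promoter signal among 707 nuclear genes, Dp1 shared place 1 with imd on the same peak. The larp gene, at place 7, came between ph-p (524), a Polycomb group gene, and Syp (494), at place 8. Below Syp came puc (491), a phosphatase gene of the JNK pathway. Imp stood far lower at place 333, between miple2 (121) and the small heat shock gene Hsp23 (121). The median over those 707 genes was 118, close to the value of Imp. That place rests on the window: within 1000 bp of a start the strongest Imp summit, 988 bp from start 5, is included and its promoter signal becomes 259.

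**Figure D2:**
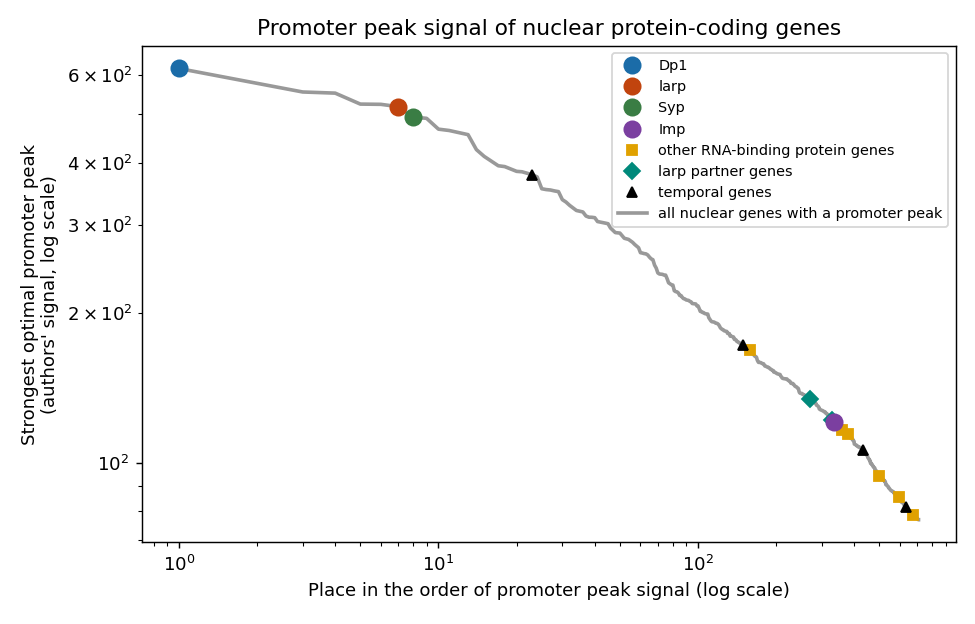
Strongest optimal promoter peak (authors' signal, log scale) against place in the order of all 707 nuclear protein-coding genes that have one (log scale). Circles mark Dp1, larp, Syp and Imp, squares, diamonds and triangles mark the listed RNA-binding, larp partner and temporal genes, and the grey line is all genes. Dp1, larp and Syp sit at places 1, 7 and 8 and Imp at 333.

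Syp and Imp each had 7 summits in the window. At least 7 optimal summits were found in or within 5000 bp of 54 protein-coding genes (0.386%). Long genes offer more room: of 394 other genes within 1.5 times the length of Syp (54.0 kb), 16 had 7 or more, and of 563 within 1.5 times that of Imp (36.4 kb), 8 did. Counting inside the gene only, Syp kept 7 and Imp had 4, and at least 4 were found in 108 genes (0.772%). Dp1, with 2 summits and 9.10 kb, and larp, with 1 and 18.3 kb, had counts seen more widely: 8.62% and 38.7% of genes of like length had as many. In Syp 6 of the 7 summits fell within 6.10 kb, from start 2 to beyond start 4. Of the 2209 nuclear summits, 12 (0.543%) opened a stretch of that length with 6 or more summits, and the most in any such stretch was 7. The length was taken from these Syp summits, so Syp is among the 12 by construction. Overlapping stretches count separately, and the Syp pair 200 bp apart counts as 2 summits. The share is a description and does not measure how unusual Syp is. The next optimal summit outside the 5000 bp margin was 34112 bp from Dp1 (signal 92.7), 200436 bp from larp (84.3), 39869 bp from Syp (83.0) and 48548 bp from Imp (119). The farthest inside the margin was 4224 bp from Imp (signal 109).

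**Figure D3:**
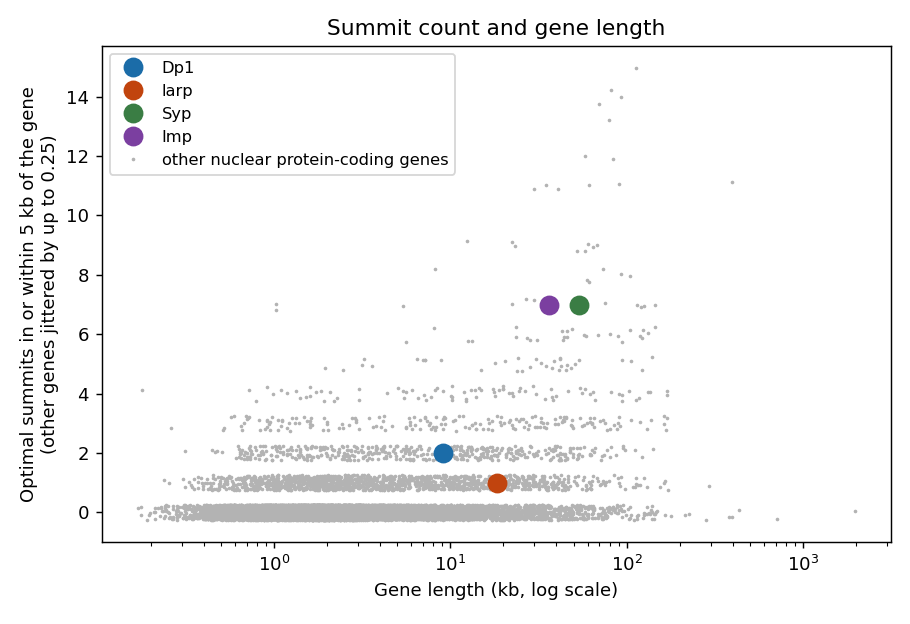
Optimal summits in or within 5 kb of a gene against gene length (kb, log scale) for Dp1, larp, Syp and Imp (circles) and all other nuclear protein-coding genes (grey points, jittered by up to 0.25). Syp and Imp have 7 each, Dp1 has 2 and larp has 1.

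All 17 optimal summits had a summit within 200 bp in both relaxed replicate lists, as had 95.5% of nuclear optimal summits. Within 100 bp, 14 of 17 matched in both (82.4%), below the 88.1% of nuclear optimal summits. The Syp summits 791 and 991 bp downstream of start 4 were matched to the same replicate 4 summit (rank 1421). That summit lay 200 bp from the former. When each replicate was held to its 2238 strongest peaks, 13 of 17 matched in both within 200 bp, against 56.2%. Pooled signal includes both replicates and in effect chose the optimal peaks, so this match is not independent of the choice. The strongest summits of Dp1, larp and Syp ranked 28 to 48 in both replicates, with mitochondrial peaks counted. At the other summits ranks ranged from close to far apart. The Syp summit downstream of start 3 ranked 1204 in replicate 4 and 1030 in replicate 2, and the summit at Syp start 4, with a high signal, differed more, as given above. The Syp summit 1782 bp downstream of start 4 ranked 6098 in replicate 4 and 520 in replicate 2. The sesB and Ant2 summit 4224 bp beyond Imp ranked 26019 in replicate 4, where the nearest summit was 185 bp away, and 1414 in replicate 2. In the other direction, the Imp summit upstream of start 4 by 1392 bp had the better rank in replicate 4 (997, against 8212 in replicate 2). The Imp summit at start 5 ranked 2987 and 2151 in replicates 4 and 2. These 4 are the ones that did not match among the strongest peaks of both.

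**Figure D4:**
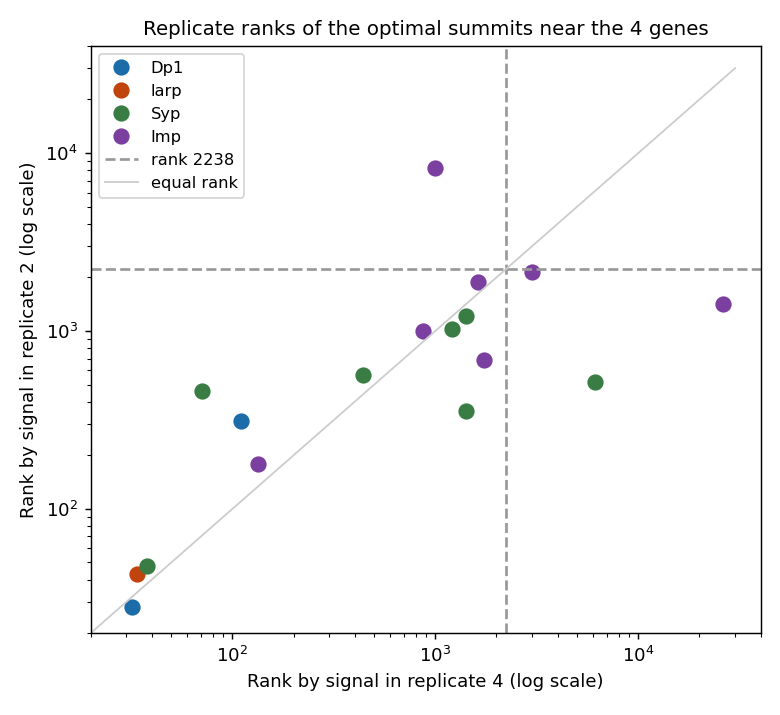
Rank by signal in replicate 4 (x axis) and replicate 2 (y axis), both on log scales, of the summits that match the 17 optimal summits of Dp1, larp, Syp and Imp. Ranks count mitochondrial peaks. Dashed lines mark rank 2238 and the grey line equal rank. Of the 17 points, 13 lie within rank 2238 in both replicates.

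Motifs were sought within 100 bp of each summit, on both strands, as GAGAG (bound by GAGA factor), CACGTCA (a core of the CREB3 family site), TGTTTAC (forkhead factors), AGATAA (for factors of the GATA family) and the shorter word ACGTG. The reverse of CACGTCA holds ACGTG, so those overlap. GAGAG occurred at 11 of the 17 summits, against 39.9% of 2209 nuclear optimal summits. The 11 were 5 of 7 at Syp, 5 of 7 in the Imp window, 1 of 2 at Dp1 and 0 of 1 at larp. Those in the Imp window include the summits 1718 and 3323 bp beyond its 3′ end, in introns of sesB and Ant2. The one at Dp1 is the weaker summit, which is nearer to an imd start. The strongest Syp summit, shown above, and the Imp window summit at the sesB start had 7 places each, which 2.54% of nuclear summits reached or passed. The weaker Dp1 summit and the Syp summit at start 4 had 5 each (5.75% of summits). The strongest summits of Dp1, larp and Imp had none. ACGTG occurred at 3 of 17 summits, against 19.5%: the stronger Dp1 summit and a pair at Syp. No summit held CACGTCA (against 1.4%), TGTTTAC (6.2%) or AGATAA (15.2%), which says only that these letters are not in these windows. Median GC content was 47.3% at the 17 summits and 39.8% over the list. GAGAG is richer in G and C than the list's windows, and the part of GC content in the count was not tested.

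Most other RNA-binding protein genes had no promoter summit. Of 50 listed, 6 had one (12%), against 5.14% of all protein-coding genes, with a median signal of 104 against 119. These genes are longer (median 10.5 kb against 2.16 kb) and have more starts (2.86 against 1.40 on average), and the part of length and starts in the count was not tested. The strongest was at ps (168), the splicing regulator pasilla with KH domains. Next came heph (117), the polypyrimidine tract-binding protein, and shep (114), with RNA recognition motifs, and then mbl (94.3), the splicing regulator muscleblind, and bru2 (85.4), of the Bruno family. The first without one in alphabetical order were Atx2, B52 and bel. Of the 6, 2 had it at the 5′ end, shep among them. That is 4% of the 50 listed, close to the 3.81% of all protein-coding genes. With the 1119 strongest optimal peaks 3 genes of the list (6%) had one, against 2.92% of all protein-coding genes.

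Among 8 genes that act with larp or in cap-dependent translation, 2 had a promoter summit, against 5.14% of protein-coding genes, and both had it at the 5′ end, against 3.81%: eIF4E1 (134), the cap-binding initiation factor, and Thor (122), the 4E-BP that inhibits it. The kinase gene mTor, the poly(A)-binding protein gene pAbp and the ubiquitin ligase gene park had none. Of 10 genes tied to timing in neural stem cells and their neurons, where Imp and Syp act, 4 had a promoter summit, against 5.14% of protein-coding genes. The count fell to 2 within 250 bp (against 4.03%), to 2 with the 1119 strongest optimal peaks (against 2.92%) and to 0 at gene 5′ ends (against 3.81%). The 4 were EcR (378), the ecdysone receptor, br (172), a BTB zinc-finger factor, svp (106), an orphan nuclear receptor, and mamo (81.5), another BTB zinc-finger factor. None of the 4 had it at the 5′ end, a pattern seen, as given above, in 44.6% of genes with several starts and a promoter summit. The first without one were brat, cas and chinmo. The gene chinmo had 2 optimal summits in or within 5000 bp, neither within 500 bp of a start. The timing genes are long (median 59.4 kb), and they were listed with the EcR peak known.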

How the data were processed

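ChIP-seq of CrebA-eGFP was analysed from 2 biological replicates. The peak signal, the −log10 q-value and the summit offset are deposited values: per the deposited notes, relaxed peaks were called per replicate and on pooled alignments against a control, on dm6, and the optimal list was thresholded by the irreproducible discovery rate. For aligner, caller and cutoff, the sources used here give no name. The −log10 q-value, as deposited, reached its ceiling of 3.12 at the strongest peaks, so peaks were ranked by signal. dm3 lists were not used. No dm6 peak ran past the end of its Release 6 arm.

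Starts came from Ensembl release 115 (BDGP6.54), without transposable elements. A replicate summit within 200 bp counted as a match, the nearest being taken. Python 3.11.15 with pandas 2.3.3 was used, and the counting was tested on planted peaks. No p-value was computed. Members and lists were chosen with earlier results of these data known. Named are the 4 genes, those sharing a summit with them, the neighbours in promoter order, up to 5 genes of a list with the strongest promoter summit and the first 3 without. Of 68 listed names, 2 (nos and Tor) were matched as nanos and mTor. Alternatives changed the windows, the starts, the peaks counted and the match distance.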

Additional observations from a re-analysis of the deposited data

How the results depend on the processing

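Of 68 alternative values 56 stayed within 1.5 times the main one, and the cause of the other changes was not tested beyond what each setting removes. Inside the gene alone Dp1 had 1 summit and Imp 4. With the 1119 strongest optimal peaks Imp had 3 summits, the RNA-binding list 3 genes with a promoter summit against 6, the timing list 2 against 4 and all protein-coding genes 408 against 718. With gene 5′ ends only, 1 of the 4 genes (Dp1) had a promoter summit, 2 of the RNA-binding list (4%) and 0 of the timing list, against 3.81% of all protein-coding genes. At 250 bp the timing list had 2, and larp lost its promoter summit. ACGTG occurred at 6 of 17 summits within 150 bp, against 3. With 1 replicate left out, counts were 2 to 3 at Dp1, 1 to 2 at larp (2 without replicate 4), 5 to 7 at Syp and 6 at Imp. RefSeq starts, an alternative added after the data were seen, left all 4 with a promoter summit. No paired analysis was possible because there is 1 group. Depth is unknown, which limits any statement on weak summits.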
